A study of Mus musculus with 4 samples.

Results

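Serpins are proteins built on a shared fold, most of which trap and inactivate a serine or cysteine protease by an irreversible change of shape, while a few act as chaperones or hormone carriers. The family is divided into clades named by a letter. Clade A and most other clades are secreted, many of them by the liver, whereas clade B members lack a classical signal peptide and work largely inside the cell, where several are thought to protect it from proteases of its own granules and lysosomes or from granzymes of cytotoxic lymphocytes. In skin, clade B members are prominent products of the epidermis, and mice carry enlarged groups of clade B genes on chromosome 13 and chromosome 1.

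The genes described here are the mouse serpins of clades A to I measured in cultured keratinocytes, the epithelial cells of the epidermis, with and without the glucose transporter Glut1 (gene Slc2a1). Of 30142 genes named by rows with exactly 1 gene symbol, 55 had a symbol made of Serpin, a clade letter from a to i and a number, and 27 of them belonged to clade B. Where a gene had several rows, the row with the highest mean signal over the 4 arrays was taken, so the choice of row was selected on the signals themselves. The family was singled out, and Serpinb9b within it, with the difference between the genotypes already known: that difference is therefore a description for Serpinb9b, and counts of changed members are given without reading anything from them. A row naming both Serpina1a and Serpina1d was left out.

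Glut1-deficient keratinocytes (2 arrays, called array 1 and array 2) were compared with wild-type keratinocytes (2 arrays), all from 1-week-old C57BL/6J mice and all grown in one keratinocyte medium with 0.05 mM calcium chloride, hydrocortisone, EGF, bovine pituitary extract and insulin. For every array 2000000 cells were seeded on collagen-coated plates, cultured overnight, and the cells of 2 plates of one genotype were combined before RNA extraction. The cells came from 4 mice of each genotype, so an array is a pool, and the p-values below measure only the spread between these pools, which may be partly technical. Neither the promoter behind the deletion nor the removed part of Slc2a1 is stated in the labels. Slc2a1 itself had log2 signals of 12.09 and 12.01 in Glut1-deficient cells, against 13.26 and 13.40 in wild-type cells, a log2 difference of -1.28 (SE 0.10, adjusted p = 0.00754, limma), so its signal was lowered and not lost.

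All values are log2 array signals, on which a difference of 1 is a factor of 2, and having so few arrays limits how precise any value is. The arrays had median signals between 4.19 and 4.24, and the 2 arrays of a genotype correlated at 0.997 (Glut1-deficient) and 0.998 (wild type) across rows, above the 0.989 to 0.992 between genotypes. A signal was called above background when both arrays of at least 1 genotype exceeded the 95th percentile of the 23 background control rows, which lay at 4.87 and 4.63 on the Glut1-deficient arrays and at 4.36 and 4.70 on the wild-type arrays. A row was called changed at an adjusted p under 0.05 in the limma fit over all 30604 rows with 1 symbol. All 8 basal keratinocyte markers were above background, with Krt5, a keratin of the basal layer, at 18.30 and 17.98 in Glut1-deficient cells and 18.61 and 18.69 in wild-type cells. The 7 measured macrophage and Langerhans cell markers, the 7 measured T and NK cell markers and the 6 hepatocyte markers were all at background, whereas 4 of 7 fibroblast, 6 of 8 melanocyte and 1 of 6 endothelial markers (Kdr) were above it. Kdr rose, by a log2 difference of 3.60 (adjusted p = 0.0051, limma), while the other 5 of its list were at background.

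Mean marker signals of the fibroblast and melanocyte lists differed between the genotypes. In each list 1 marker was called higher, where 4.11% of all rows were. The mean of the 6 endothelial markers also differed, with 4.96 and 4.73 in Glut1-deficient cells and 4.21 and 4.36 in wild-type cells. There only Kdr was above background. The mean signal over 7 fibroblast markers was 4.78 and 4.93 in Glut1-deficient cells and 4.36 and 4.35 in wild-type cells. Among them Dcn (decorin) rose, with 5.28 and 5.97 in Glut1-deficient cells and 4.08 and 3.82 in wild-type cells, while Col1a2, Col3a1 and Lum were at background. The other 6 were not called. Those above background were Pdgfrb (log2 difference 0.42, adjusted p = 0.0706, limma), Thy1 (0.37, adjusted p = 0.0891) and Col1a1 (0.22, adjusted p = 0.256). Over 8 melanocyte markers the mean was 6.86 and 6.26 in Glut1-deficient cells and 5.79 and 5.65 in wild-type cells. Pmel rose, with 6.59 and 6.16 in Glut1-deficient cells and 5.44 and 5.23 in wild-type cells, while Tyr and Sox10 were at background. The other 7 were not called. Tyrp1, the brightest, had 12.11 and 10.80 in Glut1-deficient cells and 10.25 and 9.67 in wild-type cells (1.49, adjusted p = 0.136, limma). The part of these cells in the serpin differences below was not tested.

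Several clade B members are neighbours with near-identical promoters, so their sequences are shown before the values. Of the 55 genes, 49 had a promoter window in RefSeq (GRCm38.p6), 300 bases long and reaching from upstream of the gene's start into its first bases. The first 2 windows belong to Serpinb9, the mouse gene closest to the human granzyme B inhibitor, and to Serpinb9b, the serpin whose signal differed most between the genotypes. Both are on the plus strand of chromosome 13, Serpinb9b at chr13:33027164-33027463 and Serpinb9 at chr13:33004291-33004590. Capitals mark the longest run that both share, which is 13 bases long.
Serpinb9b: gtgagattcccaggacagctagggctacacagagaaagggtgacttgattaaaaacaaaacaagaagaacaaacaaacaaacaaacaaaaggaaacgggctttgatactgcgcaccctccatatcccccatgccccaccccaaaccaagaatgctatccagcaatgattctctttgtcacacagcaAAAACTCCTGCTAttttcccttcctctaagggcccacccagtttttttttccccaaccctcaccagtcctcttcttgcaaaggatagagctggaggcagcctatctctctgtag
Serpinb9: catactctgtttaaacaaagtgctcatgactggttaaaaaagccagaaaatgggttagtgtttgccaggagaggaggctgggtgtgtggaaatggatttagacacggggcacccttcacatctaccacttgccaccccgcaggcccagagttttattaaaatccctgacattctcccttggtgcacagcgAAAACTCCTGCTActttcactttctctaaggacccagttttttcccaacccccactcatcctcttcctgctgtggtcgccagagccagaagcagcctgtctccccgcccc

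The next 3 windows come from Serpinb9e (chr13:33249358-33249657), Serpinb9f (chr13:33323827-33324126) and Serpinb9g (chr13:33484540-33484839), all on the plus strand, which had the widest gaps between the 2 Glut1-deficient arrays among serpins. Capitals mark a run of 41 bases that is identical in these 3 genes and in Serpinb9d.
Serpinb9e: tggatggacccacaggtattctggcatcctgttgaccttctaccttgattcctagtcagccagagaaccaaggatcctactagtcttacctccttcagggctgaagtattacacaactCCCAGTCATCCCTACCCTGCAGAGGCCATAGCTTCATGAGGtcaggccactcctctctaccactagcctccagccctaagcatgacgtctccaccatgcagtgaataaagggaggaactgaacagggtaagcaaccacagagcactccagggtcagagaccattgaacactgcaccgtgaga
Serpinb9f: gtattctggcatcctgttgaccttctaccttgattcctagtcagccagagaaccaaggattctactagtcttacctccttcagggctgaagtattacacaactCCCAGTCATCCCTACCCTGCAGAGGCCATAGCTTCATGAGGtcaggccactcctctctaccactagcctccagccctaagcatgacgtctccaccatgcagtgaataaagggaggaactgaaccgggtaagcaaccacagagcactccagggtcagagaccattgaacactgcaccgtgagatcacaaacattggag
Serpinb9g: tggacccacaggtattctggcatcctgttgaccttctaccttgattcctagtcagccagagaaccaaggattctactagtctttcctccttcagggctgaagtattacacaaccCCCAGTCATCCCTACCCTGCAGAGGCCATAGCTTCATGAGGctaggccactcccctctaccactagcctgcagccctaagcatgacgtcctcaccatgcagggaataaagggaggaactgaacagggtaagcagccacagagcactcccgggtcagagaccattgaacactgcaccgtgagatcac

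The last window, of Serpinb6c on the minus strand at chr13:33905142-33905441, belongs to the other clade B gene that rose. Capitals mark a match to TGATGNAA, the composite motif bound by C/EBP and ATF family factors.
Serpinb6c: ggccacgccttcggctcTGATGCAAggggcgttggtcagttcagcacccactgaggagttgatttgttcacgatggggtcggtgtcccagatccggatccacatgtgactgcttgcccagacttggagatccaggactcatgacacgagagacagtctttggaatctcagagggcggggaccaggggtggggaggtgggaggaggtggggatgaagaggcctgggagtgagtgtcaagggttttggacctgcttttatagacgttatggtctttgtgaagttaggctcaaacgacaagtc

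Aligned end to end, the 6 pairs among the windows of Serpinb9d, Serpinb9e, Serpinb9f and Serpinb9g were 87.0% to 94.7% identical. The same 4 windows were 48.3% to 52.3% identical to those of Serpinb9, Serpinb9b and Serpinb9h, while the remaining 87 pairs of clade B windows on chromosome 13 had a median of 52.0% (range 43.7% to 72.0%). The windows of Serpinb9 and Serpinb9b were 62.0% identical to each other. The window of Serpinb9c lay between, at 63.0% to 66.0% identity with the 4.

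**Figure D1:**
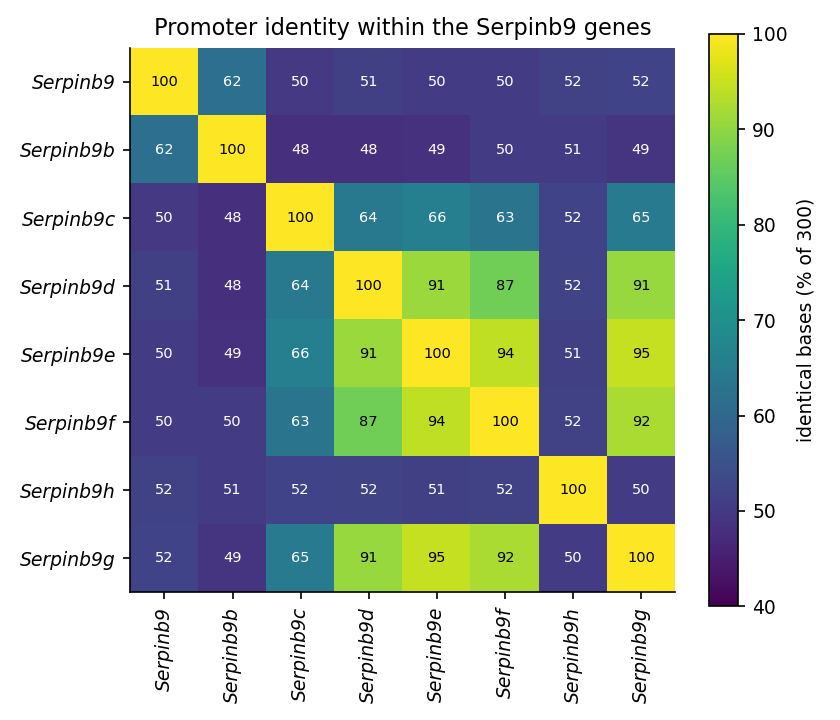
Percent identity of RefSeq promoter windows (300 bases each) between the 8 Serpinb9 subfamily genes, with genes on both axes and colour giving the percent. Serpinb9d, Serpinb9e, Serpinb9f and Serpinb9g form one block at 87.0% to 94.7%.

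The short motifs searched on both strands of each window were TGACTCA, the site of AP-1 factors, and TGATGNAA, as above; the letters of one do not contain the other. Counts are of genes with the motif in any of their windows. TGACTCA was in 0 of 15 clade B genes of chromosome 13, in 2 of 10 of chromosome 1 (Serpinb7 and Serpinb8) and in 5 of 49 serpins. By window, 5 of 58 serpin windows held it. Of 27025 genes with a window, 5.95% held it (5.20% of all 32851 windows). TGATGNAA was in 2 of 15 clade B genes of chromosome 13 (Serpinb6c and Serpinb9c), in 0 of 10 of chromosome 1 and in 4 of 49 serpins. By window, 4 of 58 serpin windows held it, against 4.51% of all genes (3.97% of all windows). A match describes these letters only.

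Most serpins gave no signal beyond background. Of the 55 genes, 20 were above background, 4 exceeded it on 1 array only (Serpina3f, Serpinb3c, Serpinb9d and Serpind1), and 31 stayed at it, with signals from 3.09 to 4.47. Clade B held 16 of the 20, clade A held 2 (Serpina3n and Serpina3i) of its 19, and clades F and H held 1 each. Plasma serpins such as Serpinc1 (antithrombin), Serpina6 (corticosteroid-binding globulin) and Serping1 (C1 inhibitor) were at background in both genotypes. So were all 3 Serpinb3 genes, relatives of the human squamous cell carcinoma antigens, 1 array of Serpinb3c apart.

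**Figure D2:**
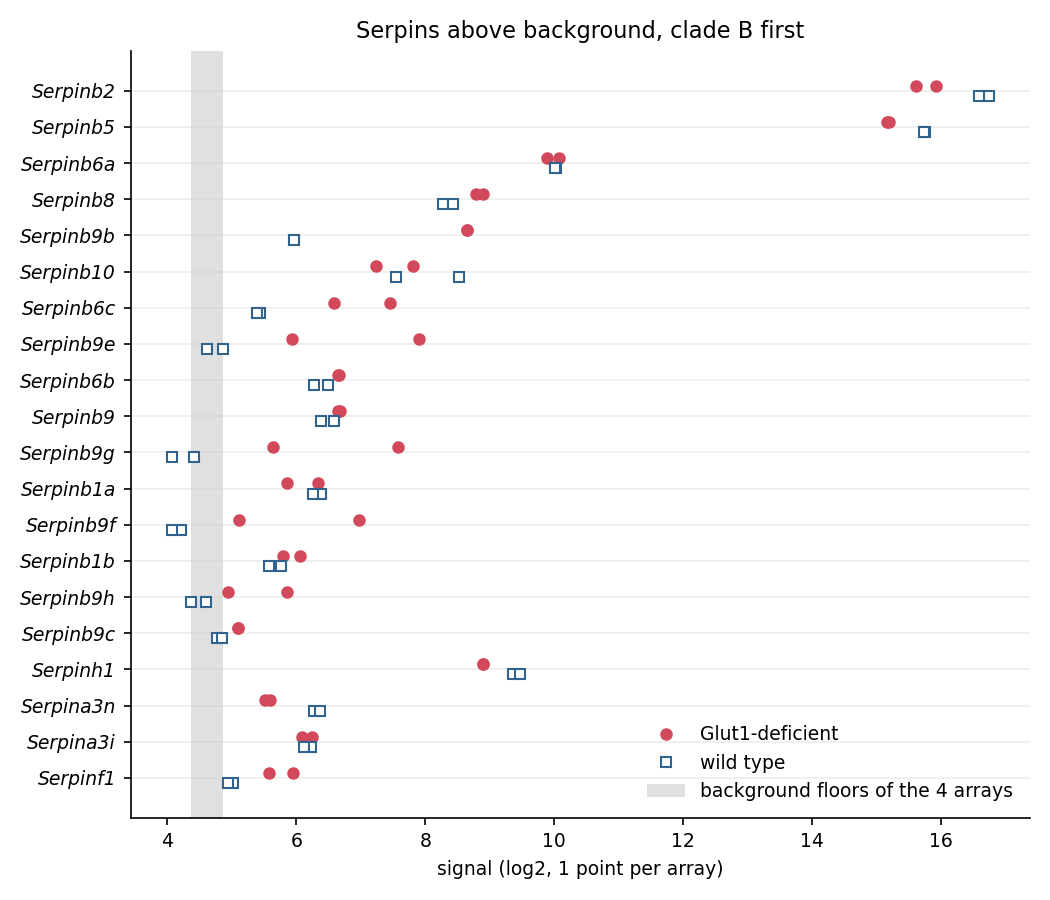
Log2 array signals (horizontal axis) of the 20 serpins above background, 1 point per array, with filled circles for Glut1-deficient arrays and open squares for wild-type arrays. The grey band spans the background levels of the 4 arrays, and Serpinb9b separates the genotypes most widely, at 8.65 and 8.64 against 5.96.

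By the fit, 3 of the 55 serpins were higher in Glut1-deficient cells (Serpinb9b, Serpinb6c and Serpinf1) and 4 were lower (Serpinb2, Serpinb5, Serpina3n and Serpinh1), together 12.7%, beside 7.22% of all rows (4.11% higher and 3.11% lower). All 7 were among the 20 above background. At an unadjusted p under 0.05, 10 serpins were higher and 4 lower, where 11.6% of all rows were higher and 10.4% lower by that criterion. In 14 genes both Glut1-deficient arrays exceeded both wild-type arrays, in 12 both lay below, and in 29 the genotypes overlapped, where 23.8% of all rows had the first pattern and 25.8% the second. The median log2 difference was -0.02 over the 55 serpins and -0.01 over all rows. Besides Serpinb9b, none of the 7 was called when either wild-type array was left out. Without Glut1-deficient array 1 the count was 5 and without array 2 it was 6, with Serpinb9e, Serpinb9f and Serpinb9g newly called in both. With all 72688 rows of the table tested, again no serpin besides Serpinb9b was called, and 0 of the pathway genes described further on. Serpinb9b was singled out with its difference known, so nothing is read from its calls in these fits.

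**Figure D3:**
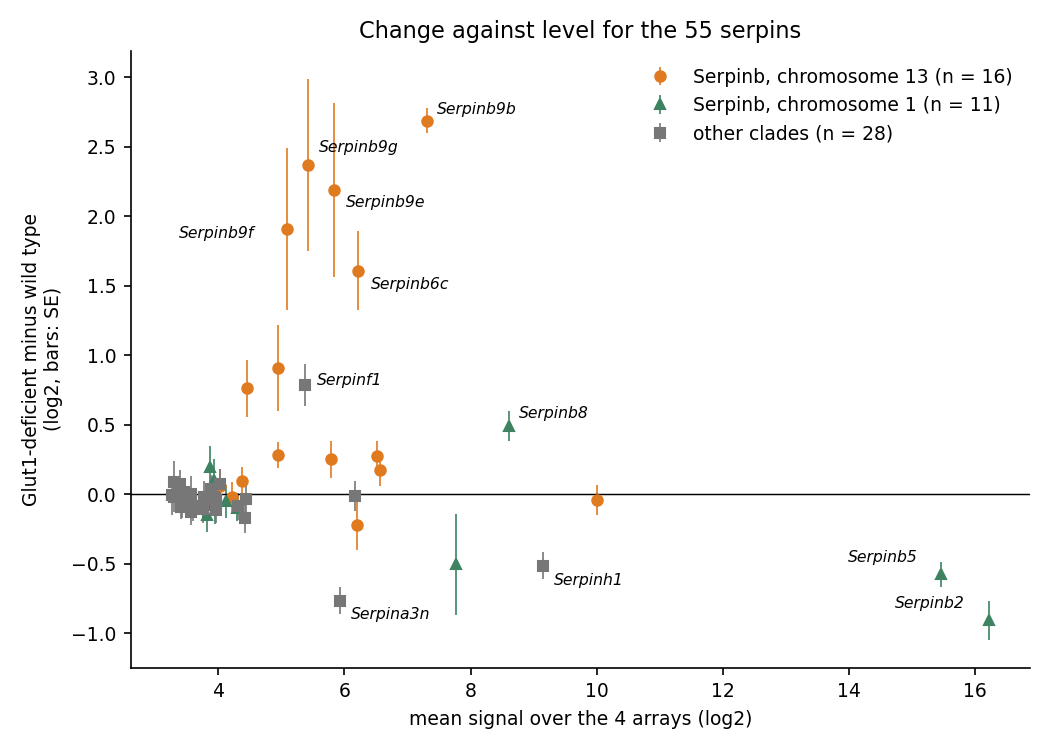
Log2 difference (Glut1-deficient minus wild type) against mean log2 signal for each of the 55 serpins, with bars for the SE and symbols for clade B on chromosome 13, clade B on chromosome 1 and other clades. The wide differences of Serpinb9e, Serpinb9f and Serpinb9g carry wide errors. That of Serpinb9b has an SE of 0.09, as does the smaller difference of Serpinb5.

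Clade B is given here by its 2 chromosomal groups, and the difference between them was not tested. Over all rows, 23.8% had both Glut1-deficient arrays above both wild-type arrays and 25.8% both below, while 4.11% were called higher and 3.11% lower. On chromosome 13, 16 genes had a median difference of 0.28, 12 had both Glut1-deficient arrays above both wild-type arrays and none had both below, and 2 were called higher. On chromosome 1, 11 genes had a median of -0.08, 1 had both arrays above, 3 had both below, and 2 were called lower. These counts share neighbours and similar sequences, so the genes are not independent replicates. Within chromosome 13, all 8 Serpinb9 subfamily genes had both Glut1-deficient arrays above both wild-type arrays, with a median of 1.41 and a range from 0.17 to 2.69, although only Serpinb9b was called.

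Serpinb9b, which in mice inhibits granzyme M, had 8.65 and 8.64 in Glut1-deficient cells, against 5.96 on both wild-type arrays. The genotypes did not overlap, and the arrays of each genotype differed by no more than 0.01. The log2 difference was 2.69 (SE 0.09), a 6.44-fold higher signal. Granzyme M itself was not among the listed genes, so its signal is not given. Gzmb, the granzyme that Serpinb9 blocks, and Prf1, the pore protein that delivers granzymes, were at background. Gzmb had 3.51 and 3.46 in Glut1-deficient cells and 3.35 and 3.68 in wild-type cells. In bulk RNA, more or fewer cells of a type cannot be told apart from more or less RNA per cell.

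Serpinb9e, Serpinb9f and Serpinb9g, mouse paralogs of Serpinb9, were higher on both Glut1-deficient arrays but unevenly so. Serpinb9g had 5.64 and 7.58 in Glut1-deficient cells, against 4.41 and 4.07 in wild-type cells, with a fitted log2 difference of 2.37 (SE 0.62, adjusted p = 0.0946, limma). Serpinb9e had 5.93 and 7.91 in Glut1-deficient cells, against 4.86 and 4.61 in wild-type cells, with a fitted difference of 2.19 (SE 0.63, adjusted p = 0.117). Array 2 was well above array 1 in both, and only 1 of the 2 wild-type arrays exceeded background for either gene. Both therefore counted as above background through the Glut1-deficient arrays alone, and the fitted differences are in part differences from background. Serpinb9f had 5.12 and 6.97 in Glut1-deficient cells, against 4.21 and 4.06 in wild-type cells, where it was at background (adjusted p = 0.137). Over the wild-type background level, its mean signal was 2.85-fold higher, which was 1.5-fold with Glut1-deficient array 1 alone and 5.41-fold with array 2 alone. The background level of Glut1-deficient array 1 was itself 4.87, close to the signal there, so these folds are not lower bounds. With wild-type signals below background raised to it, Serpinb9g was 2.12-fold higher on array 1 and 8.15-fold on array 2, and Serpinb9e 2.22-fold and 8.75-fold. None of the 3 passed the test with all arrays. The fits that left out 1 Glut1-deficient array called all 3 (adjusted p from 0.0253 to 0.0488), against wild-type signals that were at background or above it on 1 array only, so nothing is read from those calls. Probe sequences were not used here, and genes this alike can share probe signal, so each of the 3 values is uncertain as to its gene.

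The gap between the Glut1-deficient arrays was unusual for these genes. Array 2 minus array 1 was 1.98 for Serpinb9e, 1.94 for Serpinb9g and 1.85 for Serpinb9f, where the median over all rows was -0.05 (SD 0.26). Array 2 exceeded array 1 by at least as much as for Serpinb9e in only 6 rows (0.0196%), itself included: Tfpi2, Xist, Pdk4, Angptl4 and Prl2c5 were the others. Rows where array 1 was the higher were not counted. Xist, transcribed from the inactive X chromosome of female cells, had 11.50 and 14.12 on the Glut1-deficient arrays and 13.86 and 13.66 on the wild-type arrays. The part of the pools' makeup in these gaps was not tested. Serpinb9b showed no such gap (-0.01), and that of Serpinb6c ran the other way (-0.87).

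The remaining Serpinb9 genes were dim or close to even. Serpinb9h had 4.93 and 5.85 in Glut1-deficient cells, against 4.60 and 4.37 in wild-type cells, where 1 of the 2 arrays exceeded background (fitted log2 difference 0.91, adjusted p = 0.170, limma). Serpinb9d, singled out after its values were seen, had 4.56 and 5.11 in Glut1-deficient cells, against 4.195 and 3.95 in wild-type cells, with 1 array above background. Serpinb9c had 5.09 on both Glut1-deficient arrays and 4.77 and 4.84 on the wild-type arrays (0.29, adjusted p = 0.157). Serpinb9 itself, the granzyme B inhibitor, had 6.64 and 6.67 in Glut1-deficient cells, against 6.58 and 6.38 in wild-type cells, a difference of 0.17 (SE 0.11, adjusted p = 0.472). Serpinb9 and Serpinb9b lie next to each other on the chromosome, with log2 differences of 0.17 and 2.69.

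The Serpinb6 genes, whose mouse founder Serpinb6a inhibits cathepsin G and trypsin-like proteases, did not move together. Serpinb6c had 7.46 and 6.59 in Glut1-deficient cells, against 5.44 and 5.39 in wild-type cells. It rose by 1.61 on the log2 scale (SE 0.29, adjusted p = 0.0380, limma), a 3.05-fold higher signal with no overlap. The call was lost without wild-type array 1 (adjusted p = 0.114) or array 2 (0.113), and the difference was 1.17 without Glut1-deficient array 1 and 2.04 without array 2. Serpinb6a had 10.08 and 9.88 in Glut1-deficient cells and 10.03 and 10.01 in wild-type cells, overlapping values (-0.04, adjusted p = 0.911). Serpinb6b had 6.67 and 6.65 in Glut1-deficient cells and 6.50 and 6.28 in wild-type cells (0.27, adjusted p = 0.257), while Serpinb6d and Serpinb6e were at background.

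The Serpinb1 genes, of which Serpinb1a and Serpinb1c open the cluster and Serpinb1b lies between Serpinb9b and Serpinb9c, showed no call. Serpinb1a, an inhibitor of neutrophil elastase, had 5.85 and 6.34 in Glut1-deficient cells and 6.38 and 6.25 in wild-type cells (log2 difference -0.22, adjusted p = 0.595, limma). Serpinb1b had 5.79 and 6.05 in Glut1-deficient cells and 5.76 and 5.58 in wild-type cells (0.25, adjusted p = 0.386). In RefSeq order the cluster lies between Wrnip1 and Nqo2. Of the 7 measured genes on its 2 sides (Foxc1, Gmds, Mylk4, Wrnip1, Nqo2, Bphl and Tubb2a), only Tubb2a, a beta tubulin, was called, and it was lower by a log2 difference of -0.68 (adjusted p = 0.0295). The differences of the 7 ranged from -0.68 to 0.44.

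**Figure D4:**
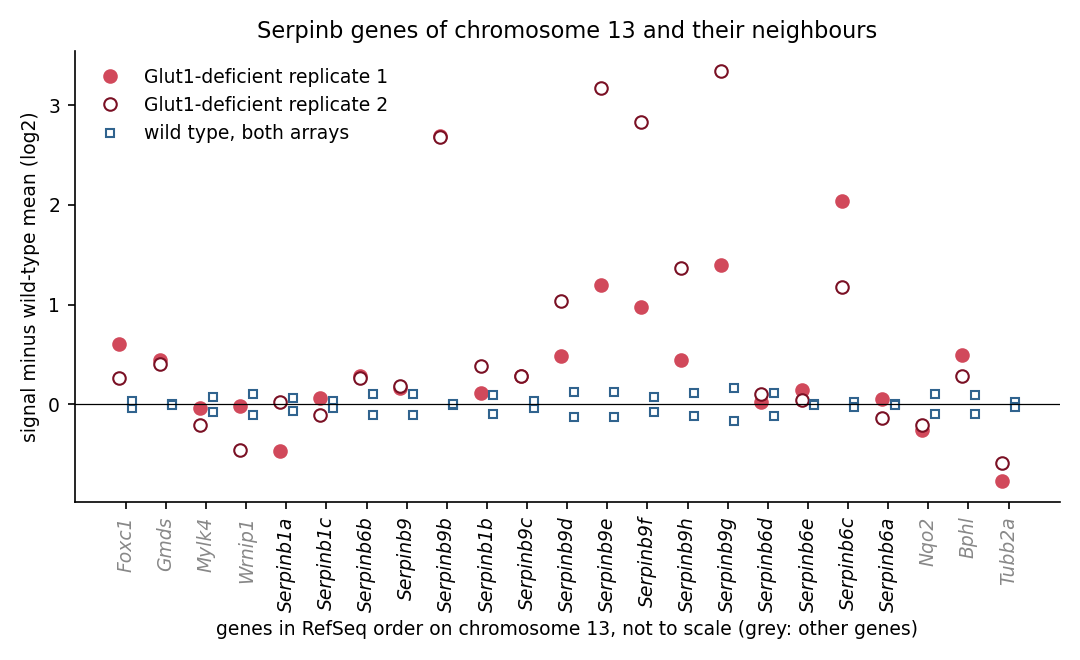
Log2 signal of each Glut1-deficient array minus the wild-type mean, for clade B serpins of chromosome 13 and their neighbours in RefSeq order (horizontal axis, order and not distance). Filled and open circles are Glut1-deficient arrays 1 and 2, squares the wild-type arrays. Serpinb9e, Serpinb9f and Serpinb9g show a wide gap between the arrays, while the Serpinb9b points coincide.

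On chromosome 1, 4 of the 11 clade B genes were above background, and 2 of them fell. Serpinb2, known as plasminogen activator inhibitor 2, had 15.61 and 15.92 in Glut1-deficient cells, against 16.74 and 16.60 in wild-type cells. It fell by 0.91 on the log2 scale (SE 0.14, adjusted p = 0.0272, limma), a 1.88-fold lower signal with no overlap. The call was lost without either wild-type array (adjusted p = 0.119 without array 1, 0.0805 without array 2) or without Glut1-deficient array 1 (0.0925). Serpinb5, known as maspin, an epithelial serpin that does not inhibit proteases in the usual way, had 15.19 and 15.16 in Glut1-deficient cells, against 15.76 and 15.74 in wild-type cells. It fell by 0.57 (SE 0.09, adjusted p = 0.0295), a call lost without any 1 array (adjusted p from 0.0811 to 0.157). Its 2 arrays of each genotype lay within 0.03 of each other. Over the 8 basal keratinocyte markers the mean signal was 13.32 and 13.24 in Glut1-deficient cells and 13.62 and 13.70 in wild-type cells, with a median log2 difference of -0.38. Of the 8, Col17a1, a hemidesmosomal collagen, fell (-0.86, adjusted p = 0.0181), and 7 were not called, where 3.11% of all rows fell. The part of that difference in the values of Serpinb2 and Serpinb5 was not tested.

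Just outside the threshold was Serpinb8, whose human counterpart inhibits furin, with 8.79 and 8.90 in Glut1-deficient cells, against 8.28 and 8.44 in wild-type cells (log2 difference 0.49, SE 0.11, adjusted p = 0.0651, limma). The genotypes did not overlap. Its adjusted p was 0.217 with all rows of the table tested and 0.0977 with the replicate number as a block (limma). With only rows at or above the median signal tested it was 0.0422 (limma). Serpinb10, known as bomapin from blood cells, had 7.24 and 7.81 in Glut1-deficient cells and 7.54 and 8.52 in wild-type cells, which overlapped (-0.50, adjusted p = 0.530). Serpinb7, Serpinb12 and Serpinb13, known from epidermis, were at background. Among 8 differentiating keratinocyte markers, 5 were above background and 2 fell, where 3.11% of all rows fell. The 2 were Ivl (involucrin) with a log2 difference of -1.36 and Tgm1 (a transglutaminase) with one of -1.52. The other 3 above background were not called: Dsg1a (a desmoglein) had a difference of 0.73 (adjusted p = 0.0739), Krt10 one of -0.14 and Flg (filaggrin) one of -0.04.

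Outside clade B, 4 of 28 genes were above background. Serpina3n, a secreted acute-phase inhibitor, had 5.52 and 5.59 in Glut1-deficient cells, against 6.27 and 6.37 in wild-type cells, and fell by 0.77 on the log2 scale (SE 0.10, adjusted p = 0.0189, limma). Serpina3i, a close relative, had 6.09 and 6.24 in Glut1-deficient cells and 6.23 and 6.13 in wild-type cells, overlapping values (-0.01, adjusted p = 0.976). Serpina3 genes are close copies, so their separation by the array is uncertain. Serpinf1, the secreted pigment epithelium-derived factor, was just inside the threshold with 5.58 and 5.95 in Glut1-deficient cells, against 5.02 and 4.93 in wild-type cells (0.79, SE 0.15, adjusted p = 0.0447). Serpinh1, the collagen chaperone Hsp47, had 8.89 and 8.90 in Glut1-deficient cells, against 9.35 and 9.47 in wild-type cells, and fell by 0.52 (SE 0.10, adjusted p = 0.0441). Its second row had 7.11 and 7.34 in Glut1-deficient cells, against 7.60 and 7.65 in wild-type cells, the same direction without a call (adjusted p = 0.123).

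None of these 3 calls outside clade B outlived the removal of any 1 array: the adjusted p ran from 0.0548 to 0.0953 for Serpina3n, from 0.0607 to 0.161 for Serpinf1 and from 0.105 to 0.218 for Serpinh1.

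Serpins act on proteases, so genes of their pathways were counted from 4 lists. Of 16 measured genes of plasminogen activation and coagulation, 11 were above background, 3 rose, 1 fell and 12 were not called (median log2 difference 0.09), where 4.11% of all rows rose and 3.11% fell. The same shares apply to the 3 lists that follow, and nothing is read from the counts. Plau, the urokinase that Serpinb2 inhibits, had 13.59 and 14.28 in Glut1-deficient cells, against 16.66 and 16.30 in wild-type cells. It fell by 2.54 on the log2 scale (SE 0.26, adjusted p = 0.0122, limma), so urokinase and its inhibitor were both lower. Its receptor Plaur had 13.92 and 14.19 in Glut1-deficient cells, against 13.38 and 13.27 in wild-type cells, and rose by 0.73 (SE 0.13, adjusted p = 0.0372), a call lost without any 1 array (0.0742 to 0.152). Lrp1 and Vldlr, receptors that clear serpin complexes, rose by 1.59 (adjusted p = 0.0225) and 1.25 (adjusted p = 0.0105). The call of Lrp1 was lost without wild-type array 1 (adjusted p = 0.0747) or array 2 (0.0741), and that of Vldlr without wild-type array 1 (0.0516) or Glut1-deficient array 1 (0.0524).

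Of 24 measured proteases that serpins inhibit or that resemble those, 13 were above background, 0 rose, 1 fell and 23 were not called (median -0.07). At an unadjusted p under 0.05, 4 of the 24 were higher and 8 lower, where 11.6% of all rows were higher and 10.4% lower. Nothing is read from these counts either. Tmprss11e, a transmembrane serine protease singled out after its values were seen, had a log2 difference of -1.86 (adjusted p = 0.0536, limma). Prss22, the trypsin-like serine protease tryptase epsilon, had 9.74 and 10.97 in Glut1-deficient cells, against 13.36 and 13.24 in wild-type cells, and fell by 2.95 on the log2 scale (SE 0.39, adjusted p = 0.0206, limma). Without wild-type array 1 or 2 the adjusted p was 0.0708 and 0.0594, and the difference was -2.34 without Glut1-deficient array 1 and -3.56 without array 2. Ctsb and Ctsl, the lysosomal cathepsins B and L, had no call. Ctsl was at 16.72 and 16.41 in Glut1-deficient cells and 16.18 and 16.06 in wild-type cells.

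Among 22 other protease inhibitors, 10 were above background, 1 rose, 1 fell and 20 were not called (median 0.01). Spink5, the epidermal inhibitor of kallikreins LEKTI, had 8.99 and 9.40 in Glut1-deficient cells, against 6.26 and 6.74 in wild-type cells, and rose by 2.70 on the log2 scale (SE 0.22, adjusted p = 0.00754, limma). Wfdc2, a small whey acidic protein family member, had 6.08 and 6.01 in Glut1-deficient cells, against 7.48 and 7.06 in wild-type cells, and fell by 1.22 (adjusted p = 0.0198). Its call was lost without wild-type array 1 (adjusted p = 0.0559), Glut1-deficient array 1 (0.0956) or array 2 (0.0739).

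Of 15 measured partners of Serpinh1 in collagen folding, 13 were above background, 1 rose, 2 fell and 12 were not called (median -0.01). P3h2, a prolyl 3-hydroxylase, had 11.24 and 11.03 in Glut1-deficient cells, against 9.57 and 9.46 in wild-type cells, and rose by 1.61 on the log2 scale (SE 0.12, adjusted p = 0.00593, limma). Plod2, a lysyl hydroxylase, fell by 1.22 (adjusted p = 0.0125, and 0.0503 without wild-type array 2 or 0.0610 without Glut1-deficient array 1). P4hb, the disulfide isomerase subunit of prolyl 4-hydroxylase, fell by 0.58 (adjusted p = 0.0344), a call lost without any 1 array (0.0823 to 0.171). The 3 called genes thus moved in both directions.

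**Figure D5:**
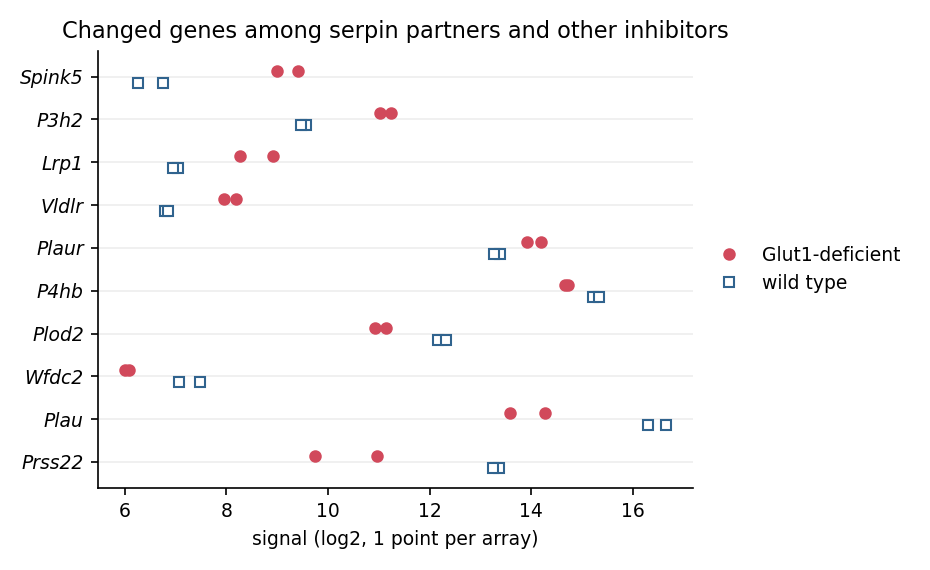
Log2 signals per array of the pathway genes called changed, with filled circles for Glut1-deficient arrays and open squares for wild-type arrays. Plau and Prss22 lie lower, and Spink5, P3h2, Lrp1 and Vldlr lie higher, in Glut1-deficient cells.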

How the data were processed

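RNA from 2 Glut1-deficient and 2 wild-type keratinocyte pools was measured on Affymetrix MTA-1_0 arrays. The deposited values are log2 signals, made by the authors with RMA in Affymetrix Expression Console per the submitters' processing notes, and the genome build of the array annotation is stated in none of the labels. In general RMA adjusts background and equalises the arrays' distributions, so a difference common to all genes cannot be seen, and dim signals are compressed towards the background.

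Of 72688 rows, 6732 were control rows, 30604 named 1 gene symbol, 2146 several and 33206 none. Through RefSeq, 22818 rows matched a current gene and 827 symbols were updated, 2 of them serpins (Serpina16 and Serpinb9h). limma 3.58.1 (lmFit and eBayes, two-sided, R 4.3.3) was fitted on the 30604 rows, with Benjamini-Hochberg adjustment over all of them, and was tested on simulated data. Promoter windows were aligned with Biopython 1.88.

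The members and the lists were chosen with earlier results of these data known. Genes named are every called serpin, every clade B serpin above background and the 3 brightest above background of each other clade. Serpins next to the threshold and up to 4 called genes of each list by smallest p are named too. Every called marker is named, so these were chosen on the test, beside other members of the same marker lists. Alternatives were quantile normalization, all rows tested, brighter rows tested, an intensity trend, a replicate block, 1 row per gene, another background level, and each array left out.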

Additional observations from a re-analysis of the deposited data

How the results depend on the processing

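Testing all 72688 rows of the table left 74 called rows in place of 2209, 1 serpin (Serpinb9b) in place of 7, 1 clade B gene in place of 4 and 0 pathway genes in place of 10. Testing only rows at or above the median signal called 3043 rows in place of 2209, a larger share of fewer tested rows. There 18 pathway genes were called and, among serpins, also Serpinb8 (adjusted p = 0.0422, limma), and nothing is read from that rise. Setting the background level at its median control row put 55 serpins above it in place of 20. At its highest control row 17 were above it, and Serpinb9c, Serpinb9f and Serpinb9h no longer counted. Leaving out each array in turn gave 314 to 1214 called rows, 1 to 6 serpins, 1 to 6 clade B genes and 4 to 7 pathway genes. In these fits the lone array is assumed to vary like the other genotype's. Quantile normalization and the intensity trend each lost Serpinh1 (adjusted p = 0.0681 and 0.0559). Differences close to 0 changed sign. Serpina3i went to 0.045 with quantile normalization and ran from -0.084 to 0.061 with 1 array left out, Serpinb1a ran from -0.47 to 0.024 with 1 array left out, and Serpinb6a was 0.0049 with quantile normalization and ran from -0.14 to 0.058 with 1 array left out. The cause was not tested.

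Shared replicate numbers do not tie arrays to one animal, and deviations of same-numbered arrays correlated at -0.23 over 30604 rows. With the replicate number as a block, 1849 rows, 6 serpins, 4 clade B genes and 11 pathway genes were called: Serpinb5 (adjusted p = 0.0625) and Serpinh1 (0.0880) were lost and Serpinb9g (0.0469) was gained. A crossed pairing, chosen after seeing the data, called 2039 rows and 7 serpins, of which 6 were called without it: Serpinh1 was lost (adjusted p = 0.0605) and Serpinb9d, on 1 array above background, was gained (0.0471).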
